A study of Mus musculus with 2 samples.

Results

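The genes described here are those of the cytosolic translation initiation factors (symbols that begin Eif and a digit) and elongation factors (symbols that begin Eef and a digit) in the adrenal gland of the mouse. They were taken by symbol from the gene annotation behind the deposited tables, with at least 1 transcript typed protein-coding and without Eif2s3x, Eif2s3y and the named pseudogenes. The rule found 66 genes of 55536 annotated genes, of which 22015 are protein-coding genes of the nuclear genome, and it used no measured value. The samples are 2 libraries of total RNA from adrenal glands. The mice were female, aged 2 months and of the strain B6CASTF1/J, and the libraries are labelled as biological replicates 1 and 2 and called animal 1 and animal 2 here. No treatment and no second genotype was included. Each library was made from 300 ng of RNA with ERCC spike-ins, and the labels conflict on whether the donor animals differed, since the donor entry is the same for both. With 1 group of 2 libraries no difference can be tested, because the smallest two-sided p that 2 libraries allow is 0.5 by an exact sign test. Values are therefore given for each library, and the spread between the libraries may be technical.

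Initiation factors bring the small ribosomal subunit, the initiator tRNA and the capped mRNA together: eIF1, eIF1A, eIF3 and eIF5 act on the small subunit, eIF2 carries the tRNA, and the eIF4 factors bind and unwind the capped end of the message. Elongation factor eEF1A then delivers each aminoacyl-tRNA to the ribosome and eEF2 moves the ribosome along the message. Cells tune this machinery by phosphorylation of the alpha subunit of eIF2 and of eEF2, by repressors that bind eIF4E, and by an unusual modification of eIF5A called hypusine.

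Several of these control points are sites in the coding sequence of the genes measured. The codons of 3 of them are shown in capitals within 39 coding bases, read 5′ to 3′ on the coding strand from the reference transcripts of mm10. The serine of eIF2 alpha that its kinases phosphorylate is residue 51 without the initiator methionine (codon 52), and its bases lie in exon 2 of Eif2s1-201 at chr12:78866662-78866700 on the plus strand. The threonine of eEF2 phosphorylated by its kinase is residue 56 (codon 57), in exon 2 of Eef2-201 at chr10:81177812-81177850 on the plus strand. The lysine of eIF5A that is changed to hypusine is residue 50 (codon 50), and its stretch spans exons 2 and 3 of Eif5a-210 at chr11:69918019-69919186 on the minus strand, with the intron left out.
Eif2s1: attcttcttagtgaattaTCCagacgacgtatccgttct
Eef2: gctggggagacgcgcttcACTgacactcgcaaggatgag
Eif5a: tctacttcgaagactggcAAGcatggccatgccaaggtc

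Many of the factors have a paralog, and the pairs below carry results on levels given later. The capitals mark bases that differ between the 2 genes of a pair. Over the first 60 coding bases, Eef1a1 (exon 2, chr9:78480595-78480654, minus strand) and Eef1a2 (exon 2, chr2:181155347-181155406, minus strand) differ at 11 positions, and over the aligned coding sequence they are 79.9% identical. Eif4a1 (exons 2 and 3, chr11:69670724-69670963, minus strand) and Eif4a2 (exons 2 and 3, chr16:23108598-23108742, plus strand) also differ at 11 of 60 positions in the stretch shown, and are 77.8% identical over the aligned coding sequence.
Eef1a1: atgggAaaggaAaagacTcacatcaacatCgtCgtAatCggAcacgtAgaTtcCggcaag
Eef1a2: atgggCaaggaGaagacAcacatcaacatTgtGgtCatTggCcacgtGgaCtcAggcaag
Eif4a1: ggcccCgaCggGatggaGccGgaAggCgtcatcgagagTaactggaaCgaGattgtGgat
Eif4a2: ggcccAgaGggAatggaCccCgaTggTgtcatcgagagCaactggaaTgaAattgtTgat

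The libraries held 34517566 and 36234838 expected counts, which are estimated numbers of read pairs per gene. A chi-square test of their counts gave 77.3 per degree of freedom over 17308 genes, so they are not 1 library deposited under both labels, and the value does not bear on whether the donor animals differed. Transcripts of nuclear protein-coding genes made up 31.7% and 35.6% of all TPM (a transcript count divided by transcript length and scaled to a fixed sum), the 7SL RNA genes 33.1% and 20.4%, and the mitochondrial genome 15.9% and 22.4%. The 6 markers of the adrenal cortex, such as Star and Cyp11a1, summed to 12175 and 13668 TPM, with all 6 above 1 TPM, and the 8 markers of chromaffin cells and neurons summed to 1832 and 1495 TPM. All 8 of the latter had a higher scaled count in animal 1 (the median log2 ratio, taken as animal 2 over animal 1, was -0.36), whereas 5 of 6 adipocyte markers were higher in animal 2 with a median of 0.20. Of 5 liver markers 4 were higher in animal 1 (median -0.90, with 4 over 1.5-fold apart), and of 5 erythroid markers 4 were higher in animal 2 (median 0.41, with 2 over 1.5-fold apart). These medians kept their sign under every scaling tried (DESeq2 size factors, ERCC spike-ins, library size and TPM). Of 5 kidney markers, Kap, Slc34a1 and Umod were at 350, 91 and 77 counts in animal 1 and at 0 in animal 2. Lrp2 was at 437 and 63 counts, and Aqp2 was nearly level at 13 and 12 counts. The part of these tissue differences in the values below was not tested, and in a whole gland fewer cells of a type and less RNA per cell cannot be told apart.

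Nearly the whole set was transcribed in the gland. At least 1 TPM in both libraries was reached by 63 of the 66 factor genes, against 53.5% of all nuclear protein-coding genes (11784 of 22015). At 5 TPM 60 remained. The sum over the set was 6334 and 7549 TPM in animals 1 and 2. As a share of the TPM that nuclear protein-coding genes held, this was 2.00% and 2.12% (2.06% ± 0.0873, SD, n = 2). Eef1a1 alone held 35.6% and 45.4% of the set's TPM. Without it the share of protein-coding TPM was 1.29% and 1.16%. The plot of levels by role shows the spread over the set, from Eef1a1 at the top to Eif4e1b at or near 0.

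**Figure D1:**
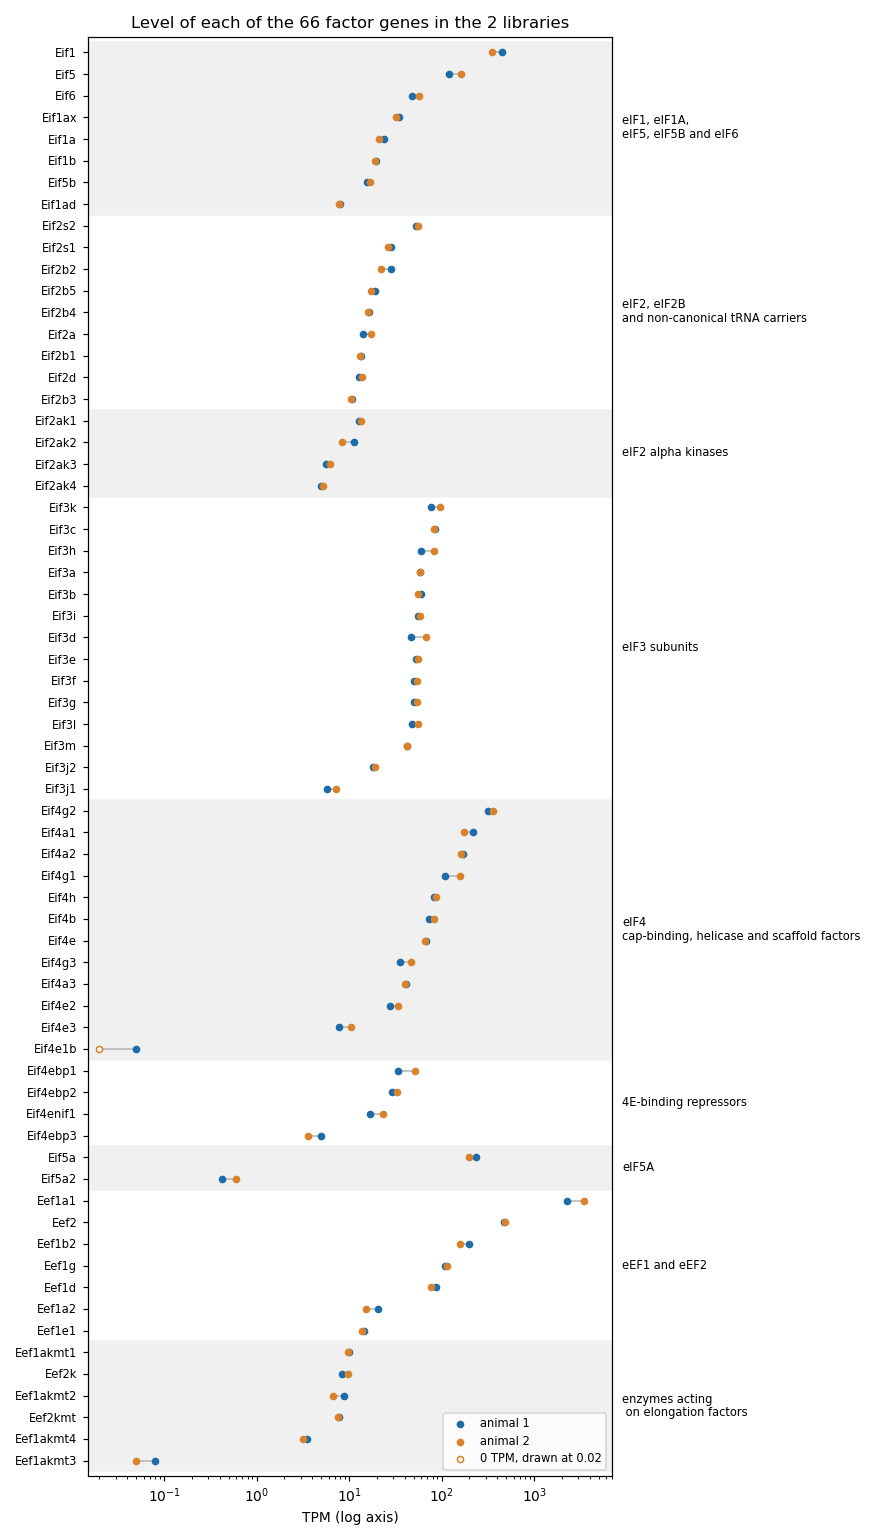
TPM on a log axis for each of the 66 factor genes, grouped by role and sorted by mean level, with 1 point for each library joined by a line. Most pairs of points lie close together, Eef1a1 stands highest at 2253 and 3428 TPM, and Eif5a2, Eef1akmt3 and Eif4e1b lie under 1 TPM.

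By TPM of the main quantification, the 2 members with the highest levels were elongation factors. Eef1a1 (chr9:78478449-78489151, minus strand), which encodes the common form of eEF1A, was at 2253 TPM in animal 1 and 3428 TPM in animal 2, and ranked 4 among nuclear protein-coding genes by mean TPM (2841 ± 831, SD, n = 2). Eef2 (chr10:81176631-81182498, plus strand), the translocation factor, followed at 476 and 483 TPM, level to within 5.06 TPM (SD, n = 2). In a second quantification deposited with the data, Eef1a1 was also highest. There Eef2, at 736 and 600 TPM, was below Eif1 (971 and 893 TPM) and Eif4g2 (747 and 1082 TPM). That order is one of whole genes. Protein-coding transcripts there held 98.8% and 98.7% of the TPM of Eef2, 34.0% and 24.3% for Eif1, and 82.4% and 51.7% for Eif4g2. In the main quantification the nucleotide exchange factors of eEF1A were lower than Eef2. Eef1b2 was at 196 and 158 TPM, Eef1g at 110 and 115 TPM, and Eef1d at 86.9 and 77.5 TPM. Eef1e1, which encodes an accessory protein of the tRNA synthetase complex despite its symbol, was lowest of the 7 at 14.4 and 13.8 TPM.

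The paralog Eef1a2, the form of eEF1A known from muscle and neurons, was at 20.4 and 15.3 TPM. By TPM Eef1a1 was thus 110 times as abundant as Eef1a2 in animal 1 and 225 times in animal 2, a log2 ratio of 7.30 ± 0.73 (SD, n = 2). In the second quantification it was 131 and 217 times as abundant. By expected counts, which are not per length, the log2 ratio was 6.33 and 6.97. Part of the Eef1a1 TPM lay in short transcripts, and its full-length coding transcript Eef1a1-201 alone was at 1715 and 1606 TPM. Skeletal muscle markers summed to 0.23 and 0.17 TPM. Eef1a2 had 1419 and 1000 counts and a 1.43-fold higher scaled count in animal 1 (95% counting interval 1.32 to 1.56). All 8 chromaffin and neuron markers were higher in animal 1 as well, but so were 4 of 5 liver and 5 of 5 kidney markers. So were 54.6% of nuclear protein-coding genes. Higher in animal 2 were 4 of 6 adrenal cortex, 5 of 6 adipocyte and 4 of 5 erythroid markers. The part of any of these cells in the value of Eef1a2 was not tested.

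The enzymes that modify the elongation factors were at 10.1 TPM or less in each library. The median over all nuclear protein-coding genes was 1.72 TPM. Eef2k, the kinase of the eEF2 threonine shown above, was at 8.38 and 9.83 TPM. Among the methyltransferases of eEF1A and eEF2 lysines, Eef1akmt1 was highest at 10.1 and 9.85 TPM, Eef1akmt2 was at 8.90 and 6.76, Eef2kmt at 7.86 and 7.51, and Eef1akmt4 at 3.47 and 3.19 TPM. Eef1akmt3 had 7 and 4 counts (0.08 and 0.05 TPM), near the 3 counts that a count of 0 still allows. The 8 enzymes of a related modification list make hypusine on eIF5A and diphthamide on eEF2. Their median was 7.99 TPM, against 7.76 TPM for the 6 elongation factor enzymes. All 8 were above 1 TPM in both libraries, from Dph3 at 22.1 and 23.5 TPM to Dph7 at 2.85 and 2.15 TPM. A higher scaled count in animal 1 was seen for 6 of the 8, against 54.6% of nuclear protein-coding genes. With ERCC scaling 4 of the 8 were higher there. Dohh and Dhps, which make hypusine, were at 16.9 and 13.7 TPM and at 9.60 and 9.80 TPM.

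Nearly all mRNA for eIF5A, their substrate, was that of Eif5a. Eif5a (chr11:69916714-69921958, minus strand) was at 238 and 198 TPM. Its paralog Eif5a2 had 72 and 98 counts, or 0.42 and 0.60 TPM. The Eif5a level was 567 and 331 times that of Eif5a2, a log2 ratio of 8.76 ± 0.55 (SD, n = 2).

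Of the factors that act on the small subunit and at start codons, Eif1 was highest. Eif1, which keeps the scanning ribosome from starting at wrong codons, was at 445 and 348 TPM, and its paralog Eif1b at 19.4 and 19.2 TPM. Eif5, which stimulates GTP hydrolysis by eIF2, was at 121 and 163 TPM, and Eif6, which keeps ribosomal subunits apart, at 48.3 and 56.9 TPM. Eif1a and its X-linked paralog Eif1ax, both coding for eIF1A, were at 23.8 and 21.2 TPM and at 35.1 and 32.4 TPM. Their order was turned both in the second quantification deposited with the data, in which Eif1a was 1.97 and 2.05 times as high as Eif1ax, and for protein-coding transcripts alone, in which it was 1.74 and 1.80 times as high. Eif5b, which joins the subunits, was at 15.8 and 16.8 TPM, and Eif1ad was lowest of the 8 at 7.94 and 7.80 TPM. The group's TPM summed to 716 and 665, and 6 of its 8 genes had a higher scaled count in animal 1, against 54.6% of nuclear protein-coding genes, or 4 of the 8 with ERCC scaling.

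The subunits of eIF2 were mostly higher than those of its exchange factor eIF2B. Eif2s2 (beta) was at 53.3 and 55.4 TPM and Eif2s1 (alpha), the gene of the serine shown above, at 28.6 and 26.3 TPM. The gamma subunit gene Eif2s3x, outside the rule, was at 63.9 and 62.6 TPM. The 5 genes of eIF2B ranged from Eif2b2 at 28.7 and 22.3 TPM to Eif2b3 at 10.7 and 10.5 TPM, each lower than both eIF2 genes in animal 2. In animal 1 Eif2b2 was level with Eif2s1, with 28.7 against 28.6 TPM. For protein-coding transcripts alone Eif2s1 was at 14.6 and 15.96 TPM, lower than Eif2b5 at 19.1 and 17.4 TPM. In the second quantification Eif2s1, at 38.3 and 25.5 TPM, was lower than Eif2b1 at 48.7 and 41.7 TPM. Eif2a and Eif2d, which code for tRNA carriers that are not part of eIF2, were at 14.3 and 17.3 TPM and at 12.7 and 13.9 TPM.

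All 4 kinases of eIF2 alpha were detected in both libraries. Their levels lay below the median member (32.5 TPM) and above the median nuclear protein-coding gene (1.72 TPM). Eif2ak1, the heme-regulated kinase, was at 12.8 and 13.3 TPM, Eif2ak3, the kinase of endoplasmic reticulum stress (PERK), at 5.66 and 6.29 TPM, and Eif2ak4, the kinase of amino acid shortage (GCN2), at 4.96 and 5.25 TPM. Eif2ak2, the kinase activated by double-stranded RNA (PKR), was at 11.4 and 8.32 TPM. With 1295 and 892 counts, Eif2ak2 was 1.47-fold higher in animal 1 (95% counting interval 1.35 to 1.60), the widest ratio among members with at least 100 counts. The next widest of the kinases was Eif2ak3, with 782 and 703 counts and a 1.12-fold higher scaled count in animal 1 (1.01 to 1.25).

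Genes that act around or after these kinases were described from a list of 8 genes of the integrated stress response, the program that follows phosphorylation of eIF2 alpha. All 8 were above 1 TPM in both libraries. Atf4, its main transcription factor, was highest at 101 and 127 TPM, and Trib3 lowest at 6.63 and 8.28 TPM. By scaled counts 6 of the 8 were higher in animal 2, against 6601 of 14555 nuclear protein-coding genes. Their median log2 ratio was 0.20, against -0.03 over those nuclear protein-coding genes. Under the other scalings from 5 to 8 of the 8 were higher in animal 2. Ppp1r15a, which directs a phosphatase to eIF2 alpha, was at 715 and 1005 counts, 1.39-fold higher in animal 2 (95% counting interval 1.26 to 1.53).

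The eIF3 complex is the largest initiation factor and scaffolds the others on the small subunit. Its 12 subunits that are coded by 1 gene each had similar levels, from Eif3m at 42.6 TPM to Eif3c at 85.2 TPM in animal 1, and from Eif3m at 42.1 TPM to Eif3k at 97.0 TPM in animal 2. The highest was 2.00 and 2.30 times the lowest, and the coefficient of variation over the 12 genes was 21.9% and 24.9%. Eif3a, the largest subunit and core of the complex, was at 58.4 and 58.5 TPM, Eif3b at 60.6 and 55.9, Eif3i at 55.5 and 59.1, and Eif3g at 50.7 and 54.0 TPM. Eif3e was at 52.6 and 55.5 TPM, Eif3f at 50.8 and 54.9, and Eif3l at 47.4 and 55.6 TPM. These 7 lay between 47.4 and 60.6 TPM in both libraries, around the median subunit at 54.1 and 57.2 TPM. Eif3d, Eif3h and Eif3k differed more between the libraries by TPM, at 46.6 and 67.8, 60.1 and 83.7, and 76.9 and 97.0. By scaled counts they were also higher in animal 2, with log2 ratios of 0.11, 0.28 and 0.23. The ratio of Eif3d was narrower than those of Eif3b (-0.21) and Eif3m (-0.27). In the second quantification Eif3h was higher in animal 2 (111 and 147 TPM), but Eif3d (94.2 and 88.1) and Eif3k (124 and 122) were not.

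**Figure D2:**
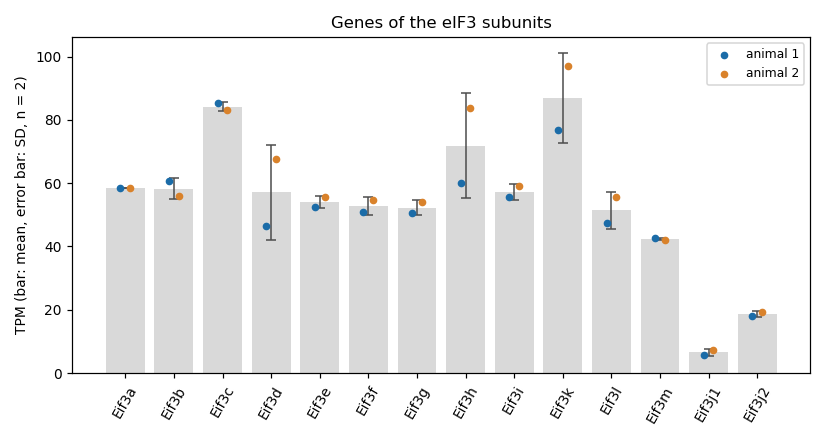
TPM of the 14 eIF3 genes, with bars for the mean of 2 libraries, error bars for the SD and a point for each library. The 12 subunits coded by 1 gene each lie between 42.1 and 97.0 TPM, and Eif3j1 and Eif3j2 lie below all of them.

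The loosely bound subunit eIF3j is coded by 2 genes, Eif3j1 at 5.84 and 7.31 TPM and Eif3j2 at 18.03 and 19.3 TPM. Their coding sequences have no substitution over 783 aligned bases, and 91.8% of the 50-base words of Eif3j2 transcripts also occur in another gene, foremost Eif3j1. The split of counts between them is therefore uncertain. Their sum was 2367 and 2645 counts, 1.11-fold higher in animal 2 (95% counting interval 1.05 to 1.17), while Eif3j1 alone was 1.27-fold higher (1.17 to 1.39) and Eif3j2 level (ratio 0.998).

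Among the eIF4 factors the scaffold Eif4g2, which lacks the eIF4E-binding part of the other eIF4G proteins, was highest at 322 and 360 TPM. Eif4g1, the main scaffold that bridges the cap-binding protein and eIF3, was at 109 and 158 TPM, and Eif4g3 at 35.7 and 46.2 TPM. The helicase genes Eif4a1 and Eif4a2 were at 219 and 177 TPM and at 169 and 164 TPM. Eif4a1 was thus 1.30 and 1.08 times Eif4a2, a log2 ratio of 0.24 ± 0.19 (SD, n = 2). A pseudogene shares the reads of Eif4a1, and summed with it Eif4a1 reached 281 and 301 TPM, or 1.66 and 1.83 times Eif4a2. For protein-coding transcripts alone Eif4a1 was 3.07 and 2.20 times Eif4a2 in the main quantification. In the second quantification these transcripts held 19.3% and 9.79% of the 834 and 529 TPM of Eif4a1. For Eif4a2 they held 26.8% and 34.9% of 561 and 416 TPM, so in animal 2 the order turned. Eif4a3, the related helicase of the exon junction complex, was at 41.1 and 40.5 TPM, and the helicase partners Eif4h and Eif4b at 82.8 and 87.2 TPM and at 73.0 and 82.6 TPM.

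Of the cap-binding proteins, Eif4e, the one of canonical initiation, was highest at 68.1 and 66.4 TPM, with Eif4e2 at 27.5 and 34.2 TPM and Eif4e3 at 7.73 and 10.5 TPM. Eif4e1b, known from the oocyte, had 2 and 0 counts in the first quantification, where a count of 0 allows up to 3 counts, or 0.0834 CPM (counts scaled to library size) in animal 2. In the second quantification it had 6 counts in each library, at 0.154 and 0.117 TPM.

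Of the repressors that bind eIF4E, Eif4ebp1 and Eif4ebp2 were the main genes. Eif4ebp1 was at 34.1 and 51.8 TPM and Eif4ebp2 at 29.2 and 33.4 TPM, so Eif4ebp2 was 0.857 and 0.644 times Eif4ebp1. The order turned for protein-coding transcripts alone, with Eif4ebp1 at 10.6 and 16.6 TPM and Eif4ebp2 2.74 and 2.01 times as high, and also by expected counts, which are not per length. Eif4enif1, which carries eIF4E into the nucleus, was at 17.0 and 23.3 TPM, and Eif4ebp3 was lowest at 4.92 and 3.62 TPM. Eif4ebp3 shares 65.5% of its 50-base words with AC115631.1, an overlapping protein-coding gene model. Eif4ebp3 had 111 and 77.2 counts, and the sum of both models 449 and 623 counts, so the gene alone was 1.45-fold higher in animal 1 and the sum 1.37-fold higher in animal 2.

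Eif4ebp1 (chromosome 8) showed the widest ratio toward animal 2 among members with at least 100 counts. Its counts were 1279 and 1853, 1.43-fold higher there (95% counting interval 1.33 to 1.54). A list of 9 genes that signal to eIF4 through TOR and MNK kinases had 7 genes higher in animal 2 (from 6 to 9 under the other scalings), with a median log2 ratio of 0.09, against 6601 of 14555 nuclear protein-coding genes and a median of -0.03. Mknk2, a kinase of eIF4E, was at 46.7 and 64.1 TPM and 1.28-fold higher (1.23 to 1.33), and Mtor was at 21.5 and 25.2 TPM. Within that list Rps6, a ribosomal protein and target of the pathway, was highest at 274 and 312 TPM and Rps6kb2 lowest at 10.5 and 13.7 TPM.

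The other steps of translation were described from lists of genes outside the set. Among 8 release and recycling factors, which end translation and split the ribosome, levels ran from Gspt1 at 50.03 and 66.9 TPM to Gspt2 at 3.31 and 2.94 TPM, and 5 of the 8 had a higher scaled count in animal 1 (2 of the 8 with ERCC scaling). Among 5 poly(A)-binding proteins and partners, Pabpc1, which binds eIF4G and closes the message into a loop, was at 178 and 246 TPM and Paip2b at 11.6 and 7.62 TPM, with 3 of the 5 higher in animal 2. The 9 mitochondrial translation factors ran from Tufm, the mitochondrial counterpart of eEF1A, at 70.6 and 75.2 TPM to Mtrf1 at 1.87 and 1.47 TPM, with 5 of the 9 higher in animal 2. Tufm was thus far below Eef1a1 on the same scale. For comparison with the counts of these 3 lists, 54.6% of nuclear protein-coding genes were higher in animal 1 and 6601 of 14555 in animal 2. With ERCC scaling the median log2 ratio of nuclear protein-coding genes was 0.18.

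Scaled counts of the factor genes differed little between the libraries. Scaling used a trimmed mean of log ratios over all genes, and 64 members had a mean of at least 10 counts. Of these, 41 were higher in animal 1 and 23 in animal 2, or 64.1% in animal 1, against 52.2% of all 17308 genes at that minimum and 54.6% of 14555 nuclear protein-coding genes. The log2 ratio of animal 2 over animal 1 had a median of -0.04 for the members and of -0.03 for nuclear protein-coding genes. None of the 62 members with at least 100 counts was over 1.5-fold apart in either direction, while 5.68% of all genes at that minimum were (691 of 12171), and 4.3% of nuclear protein-coding genes (496 of 11525). That count of 0 did not hold under 3 other scalings: Eif4ebp1 was 1.65-fold higher in animal 2 with ERCC spike-ins, Eif2ak2 1.53-fold higher in animal 1 with library size alone, and Eif4ebp1 and Eef1a1 each 1.52-fold higher in animal 2 by TPM. The directions depended on the scaling, since with ERCC spike-ins, which moved the median of nuclear protein-coding genes to 0.18, 14 members were higher in animal 1 and 50 in animal 2.

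The widest ratios toward animal 1 were those of Eif2ak2, Eef1a2, Eef1b2, Eif4a1 and Eef1akmt2, with log2 ratios from -0.55 to -0.37. Eef1b2 was at 4380 and 3202 counts, 1.38-fold higher in animal 1 (95% counting interval 1.32 to 1.45). Eef1akmt2, with 240 and 188 counts, was 1.29-fold higher with a wider interval, 1.06 to 1.57. Toward animal 2 they were those of Eif4ebp1, Eif3j1, Eif4e3, Eif3h and Eif4g3, with log2 ratios from 0.52 to 0.28. Eif4e3 had 654 and 835 counts (1.26-fold higher, 1.14 to 1.40), Eif3h 2495 and 3060 counts (1.21-fold, 1.15 to 1.28), and Eif4g3 6502 and 7971 counts (1.21-fold, 1.17 to 1.25). All these intervals cover counting error only, and with 1 library an animal none says that animals differ.

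By role, all 5 elongation factor enzymes with enough counts were higher in animal 1, as were 6 of the 7 eEF1 and eEF2 genes (median log2 ratio -0.16), with Eef1a1 the exception at 0.11. Over nuclear protein-coding genes 54.6% were higher in animal 1. The eIF2 and eIF2B group had 7 of 9 higher in animal 1 but a median of only -0.02. The eIF3 genes were divided, 6 and 8, with a median of 0.02, and the eIF4 factors 5 and 6, with a median of 0.10. With ERCC scaling, which moves every gene toward animal 2 by the same amount, 2 of the 7 eEF1 and eEF2 genes, 2 of the 5 enzymes, none of the 9 eIF2 and eIF2B genes, 2 of the 14 eIF3 genes and 1 of the 11 eIF4 factors were higher in animal 1.

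Gene length ran with the ratio. Over the 64 members the Spearman correlation between transcript length and log2 ratio was 0.386 across genes, which are not independent, and over 14555 nuclear protein-coding genes it was 0.0876. The 32 shorter members had a median log2 ratio of -0.10, with 24 higher in animal 1, and the 32 longer members a median of -0.0043, with 17 higher in animal 1. Over nuclear protein-coding genes split the same way, 4169 of 7278 shorter genes (median -0.05) and 3785 of 7277 longer genes (median -0.01) were higher in animal 1. After the median ratio of genes of like length was taken out, 37 of the 64 members were higher in animal 1 and the median was -0.02, against 7646 of 14555 nuclear protein-coding genes and a median of -0.02. The short members Eef1b2 and Eif6 lay toward animal 1 and the long genes Eif5b and Eif4g3 toward animal 2, but the short Eif3k (log2 ratio 0.23) and Eif4ebp1 (0.52) lay toward animal 2 and the long Eif2ak2 (-0.55) and Eif2ak3 (-0.17) toward animal 1, as the plot against length shows.

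**Figure D3:**
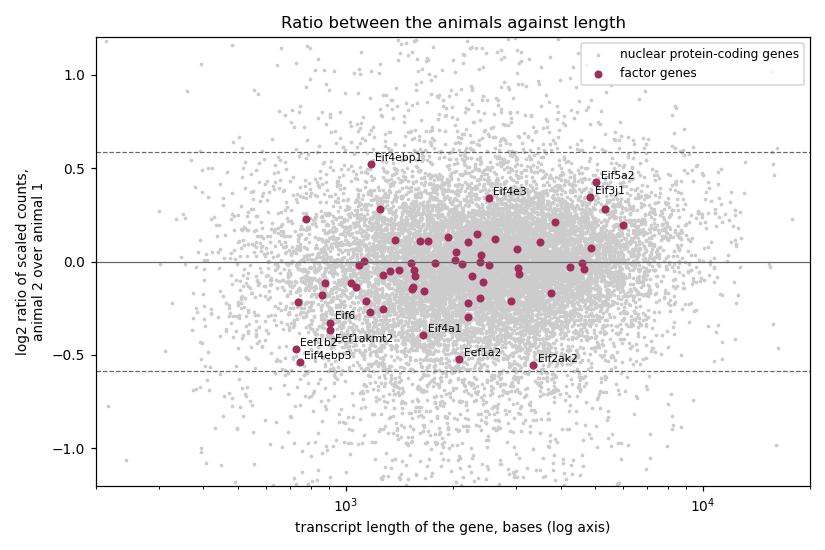
Log2 ratio of scaled counts, animal 2 over animal 1, against transcript length in bases on a log axis, for 64 factor genes (dark points) and nuclear protein-coding genes (grey), with dashed lines at 1.5-fold. No factor gene lies beyond the dashed lines, and 272 of the 14555 grey genes lie beyond the axes.

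Ratios of TPM did not follow those of counts for every member. Eef1a1 had 114412 and 125098 counts, a 1.08-fold higher scaled count in animal 2 (95% counting interval 1.07 to 1.09), but its TPM was 1.52-fold higher. The length that the deposited table gives the gene, an average over its transcripts, was 1551 bases in animal 1 and 1204 bases in animal 2. Eef1a1-201, the full-length coding transcript of 1794 bases, took 76.1% of the gene's TPM in animal 1 and 46.8% in animal 2, while the noncoding Eef1a1-204 of 505 bases took 1.68% and 24.1%, and the shorter coding Eef1a1-207 7.88% and 20.99%. In the second quantification Eef1a1 was at 4624 and 4826 TPM, with 51.3% and 45.2% in Eef1a1-201. The TPM of Eef1a1-201 alone was 1715 and 1606.

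Relative to the typical nuclear protein-coding gene, 12 of 62 members (19.4%) had a log2 TPM ratio more than 0.2 above or below their count ratio, against 17.1% of 11525 nuclear protein-coding genes. The widest gaps were those of Eif6 (0.46), Eef1a1 (0.39) and Eif3d (0.33) upward and Eif2b2 (-0.33) downward. Eif6 was higher in animal 1 by scaled counts (log2 ratio -0.33) and higher in animal 2 by TPM (0.24). In Eif3d the retained-intron transcript Eif3d-204 of 248 bases held 0.14% and 19.6% of the gene's TPM. The length in the deposited table was 1036 and 778 bases for Eif6 and 1795 and 1446 bases for Eif3d.

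The transcripts of most members were coding ones. Over 51 members with a mean of at least 10 TPM, the median share of a gene's TPM in protein-coding transcripts was 93.6% (92.9% in animal 1 and 94.7% in animal 2), against 90.6% over 6091 nuclear protein-coding genes at that level. The share was under 50% for 5 of the 51 (9.80%), against 9.05% of those genes. Eif4ebp1 had 31.2% and 32%, the rest in the noncoding Eif4ebp1-202 of 798 bases. Eif1ax had 38.9% and 36.4%, the rest in the retained-intron transcript Eif1ax-202 of 416 bases, and Eef1e1 had 38.5% and 40.6%, the rest in 2 retained-intron transcripts. Eif1 had 32.02% and 43.6%, with 61.9% and 52.7% in the noncoding Eif1-202 of 383 bases. In Eif4a2, with 25 annotated transcripts, 36.5% and 41.2% was coding, and transcripts typed as targets of nonsense-mediated decay, the breakdown of messages with early stop codons, held 44.1% and 35.7%.

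**Figure D4:**
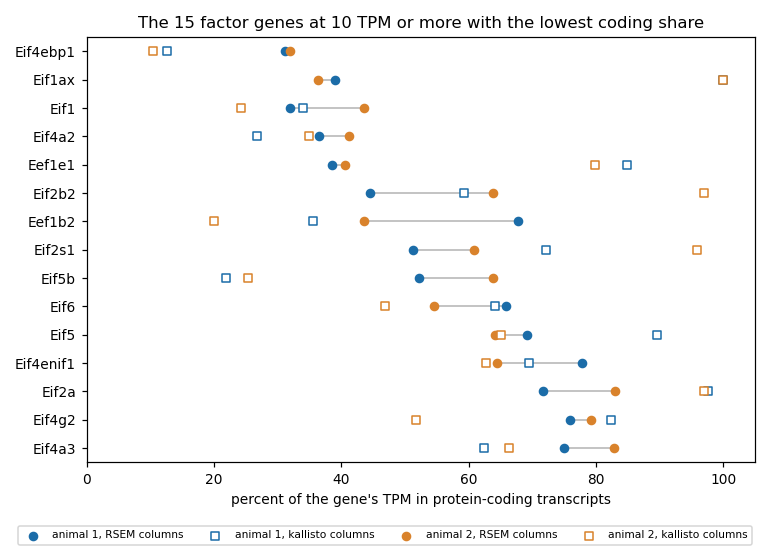
Percent of TPM in protein-coding transcripts for the 15 factor genes at 10 TPM or more with the lowest share, with filled circles for the main quantification (RSEM columns) and open squares for the second (kallisto columns), coloured by library. Eif1ax and Eef1e1 lie under 50% in the first and at 79.8% or more in the second, and Eif4ebp1 lies under 50% in both.

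These shares depended on the quantification. In the second one the coding share of Eif1ax was 100% in both libraries, of Eef1e1 84.8% and 79.8%, and of Eif4ebp1 12.6% and 10.5%. Eif4a1 went the other way, with 86.0% and 84.2% in the first and 19.3% and 9.79% in the second. The level of the whole gene also differed most for such members. Relative to the median gene, the log2 ratio of the first to the second TPM was 1.53 for Eif1ax and 1.06 for Eef1e1, and -1.06 for Eif4a1, -1.04 for Eif2b1 and -0.83 for Eif4a2. The first subtracts 99 bases from the length of each transcript and the second 327.1 and 316.02 bases, which bears most on short transcripts.

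Reads shared with other genes limit part of the set. The expected count was not whole in at least 1 library for 22 of the 66 members, and 13 shared at least 20% of their 50-base words with another annotated gene, among them Eif4a1 with 65.3%, Eef1g with 64.3% and Eef1a1 with 52.4%. Neither count was made for genes outside the set, so whether such sharing is more common among factor genes was not tested. Eef1a1 shared words with 20 genes, of which 18 are pseudogenes. The posterior SD of the count over read assignments, given in the deposited table, was 23.8 and 18.4 counts for Eef1a1, 20.2 and 19.0 for Eef1g, and 134 and 127 for Eif4a1, the widest of the set in counts. As a share of the count it was wider for Eif4ebp3 (8.26% and 12.1%) and Eif3j1 (2.75% and 2.54%) than for Eif4a1 (1.13% and 1.40%).

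Eif4a-ps4, a processed pseudogene (an intronless copy of an mRNA) at chr1:60703932-60705149 on the plus strand of mm10, drew a large number of counts. It has 1217 of the 1218 coding bases of Eif4a1 and differs by G534A, counted from the start codon with the Eif4a1 base first. The stretch that ends at this base is printed to show how close the sequences are, with the differing base in capitals. It lies in exons 5 and 6 of Eif4a1-213, at chr11:69668734-69669117 on the minus strand with the intron left out, and at chr1:60704406-60704465 on the plus strand.
Eif4a1: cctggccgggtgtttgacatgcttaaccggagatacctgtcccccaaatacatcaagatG
Eif4a-ps4: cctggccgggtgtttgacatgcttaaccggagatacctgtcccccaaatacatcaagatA

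Eif4a-ps4 had 2391 counts in animal 1 and 4590 in animal 2, where Eif4a1 had 11858 and 9111. The pseudogene's share of their sum was 16.8% (95% exact Clopper-Pearson interval 16.2 to 17.4) and 33.5% (32.7 to 34.3). In the second quantification it was 18.4% and 33.4%. Eif4a-ps4 was 1.90-fold higher in animal 2 and Eif4a1 1.32-fold higher in animal 1 (95% counting interval 1.28 to 1.35), but their sum was only 1.05-fold higher in animal 1 (1.03 to 1.08). The ratio given above for Eif4a1 was thus not seen in the sum. The cause of the different split was not tested.

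**Figure D5:**
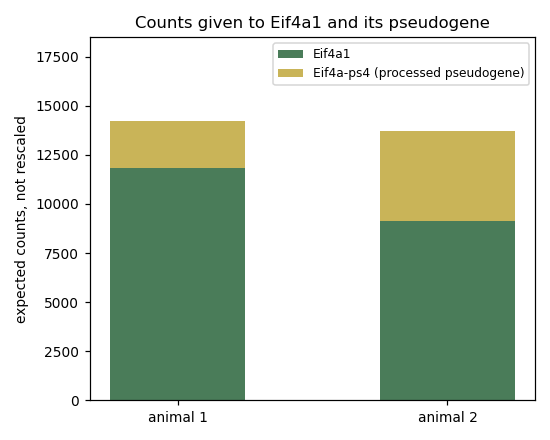
Expected counts given to Eif4a1 (lower part of each bar) and to the pseudogene Eif4a-ps4 (upper part) in each library, not rescaled for depth. The bars are of like height, 14249 and 13701 counts, and the pseudogene part grows from 2391 to 4590 counts.

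Introns of the factor genes also hold small nucleolar RNA (snoRNA) genes, short RNAs that guide modification of ribosomal and other RNAs. Of the 66 members 9 hold at least 1 snoRNA gene within their span (13.6%), with 18 snoRNA entries in all, against 1.27% of nuclear protein-coding genes (279 of 22015). Among genes with a mean of at least 10 TPM the shares were 15.7% (8 of 51) and 2.51% (153 of 6093). The hosts are Eef1b2, Eef2, Eif2ak3, Eif3a, Eif4a1, Eif4a2, Eif4g1, Eif4g2 and Eif5. Of the 3 snoRNAs with the most counts, Gm22988 and Gm23262 had ratios opposite to those of their hosts, and Gm26447 a ratio in the direction of its host but wider. Gm22988, within Eif4a1, was at 3576 and 4693 counts, 1.30-fold higher in animal 2 (95% counting interval 1.24 to 1.36). Gm26447, within Eif4a2, was at 1352 and 283 counts, 4.82-fold higher in animal 1 (4.25 to 5.51), and Gm23262, within Eif4g2, was at 428 and 178 counts, 2.43-fold higher in animal 1 (2.04 to 2.91). Gm25835, within Eif4a1, and Snora81 and Gm24616, within Eif4a2, ran toward animal 1 as their hosts did. Their counts were 301 and 47, 104 and 8.1, and 31 and 14. Summed with Eif4a-ps4, the host Eif4a1 was only 1.05-fold higher in animal 1. All other snoRNA entries had 0 counts in at least 1 library.

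The second quantification listed all 18 snoRNA entries at 0. In it the host transcripts whose exons cover a snoRNA held larger shares than in the first for 3 hosts, and nearly the same share for the fourth, Eif5 (6.02% and 5.29% against 5.01% and 4.85%). For Eif4a2 these 7 transcripts held 47.7% and 18.8% of the gene's TPM in the second quantification and 9.88% and 10.5% in the first. For Eif4g2, 1 such transcript, Eif4g2-211, held 14.1% and 33.3% against 0.59% and 1.5%, and for Eif4a1 3 transcripts held 14.7% and 24.3% against 2.16% and 4.54%. The part of snoRNA reads in these shares was not tested.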

How the data were processed

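Total RNA of adrenal gland was measured in 2 libraries of 1 group. Per the text deposited with the files, the tables used mm10 and GENCODE M21; the first gene and transcript tables came from transcriptome alignments, and their column names are those of RSEM, while the second transcript tables came from the reads and have column names of kallisto. For each gene and transcript the authors deposited an expected count (read pairs, not normalized), a TPM (per length, with a fixed sum over all rows, spike-ins included), each transcript's percent of its gene's TPM, model lengths and a posterior SD of the count, per the file headers. Aligner, program versions and filters: not given in the sources used here.

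Gene symbols, types and spans came from GENCODE M21, to which 55536 gene identifiers matched. Sequences were read from the transcript sequences of that release. Rows that name no gene (26345, spike-ins included) held 0.909% and 0.760% of the counts and stayed out of scaling. No column was left unmatched to a sample. Expected counts were rounded for scaling factors, by the trimmed mean of M-values in edgeR 4.0.16 (R 4.3.3), 1.02 and 0.981. Log2 ratios of animal 2 over animal 1 had a prior of 0.5 counts and a minimum mean of 10 counts, or 100 for the count of genes past 1.5-fold. Intervals are exact Clopper-Pearson 95% intervals of a share of counts, turned into ratios. Read pairs without molecular identifiers are not independent molecules, so intervals and the floor of 3 counts cover counting error only. Shared sequence is the share of 50-base words of a gene's protein-coding transcripts found in any transcript of another gene. The ratio step was tested on simulated counts. Other tools were DESeq2 1.42.0, Python 3.11.15, pandas 2.3.3, scipy 1.17.1 and matplotlib 3.10.9.

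The genes and lists were chosen with earlier results of these data known. Named are the 10 members highest by TPM, the highest and lowest of each role and pathway list, members under 1 TPM, the 5 widest ratios each way at 100 counts, the 5 lowest coding shares and the 5 widest gaps between quantifications at 10 TPM, the paralog pairs, eIF3 and the eIF2 alpha kinases; others were named as background to their group, and the sum with pseudogenes, the snoRNA hosts and the gap between TPM and count ratios were chosen after their values were seen. Alternatives were DESeq2 size factors, ERCC, library size, TPM and kallisto values, other minimums and priors, each library alone, and, chosen after seeing the data, a correction for length in 20 bins.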

Additional observations from a re-analysis of the deposited data

Results flagged for a closer look

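The rule for the factor genes leaves out the named pseudogenes, and 2 of these held counts above what a count of 0 allows (3 counts). Eif4a-ps4 had a mean of 3491 expected counts (2391 in animal 1 and 4590 in animal 2), and its split with Eif4a1 is described above. Eif1-ps1 had a mean of 6.24 expected counts (7.44 and 5.04), against 9081 and 7902 for Eif1.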

How the results depend on the processing

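Of 44 alternative values other than those of 1 library alone, 31 lay within the spread of the libraries or 1.5 times the count and 13 moved. In 1 of the 31, the count of members higher in animal 1 by TPM, the majority turned to animal 2. The share of the set in nuclear protein-coding genes was 1.70% by expected counts in place of TPM. With ERCC scaling 14 members were higher in animal 1 and the median log2 ratio was 0.17; with the TPM ratio the median was 0.055 and 29 members were higher in animal 1, with 35 in animal 2. Members over 1.5-fold apart were 1 with ERCC scaling (Eif4ebp1, 1.65-fold higher in animal 2), 1 with library size alone (Eif2ak2, 1.53-fold higher in animal 1), 2 with the TPM ratio (Eif4ebp1 and Eef1a1, each 1.52-fold higher in animal 2) and 2 with no filter on counts (Eif4e1b and Eef1akmt3, which have under 10 counts). In the second quantification the log2 ratio of Eif4a1 to Eif4a2 was 0.46 and that of Eif4ebp2 to Eif4ebp1 -1.10. By expected counts, which are not per length, that of Eif5a to Eif5a2 was 6.69 and that of Eif4ebp2 to Eif4ebp1 was 1.63, the opposite order. The median coding share was 92.1% over members at 1 TPM or more. The cause was not tested for any of these beyond what the change of unit itself does.

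A value of 1 library alone lies within the spread of the pair by construction and is given as a range only. With each library alone the share ran from 2.00% to 2.12%, the log2 ratio of Eef1a1 to Eef1a2 from 6.78 to 7.81, of Eif4a1 to Eif4a2 from 0.10 to 0.38, of Eif5a to Eif5a2 from 8.37 to 9.15 and of Eif4ebp2 to Eif4ebp1 from -0.64 to -0.22. No paired analysis was possible because there is 1 group. Depth limits the members under 1 TPM, of which Eef1akmt3 and Eif4e1b had at most 7 counts in a library.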
